A study of Mus musculus with 4 samples.

Results

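The comparison of GATA-1 V205M with the wild-type form, GATA-1 WT, sets 1 sample of the G1E line beside another. The form of GATA-1 in them differs by 1 amino acid, and the Gata1 RNA level differed as well. Members are all 1210 genes that the authors' deposited table of this pair lists, of 2982 genes listed in any of the 6 tables of the study and 12931 genes tested. The number tested is not given and was inferred from the authors' p-values and adjusted p-values. G1E is a mouse erythroblast line derived from embryonic stem cells that lack GATA-1. The study measured RNA in 4 groups of 1 sample each: G1E control cells, cells with GATA-1 V205M, cells with GATA-1 WT, and cells with the mutant GATA-1 2RA. All have the G1E background and received β-estradiol. The labels do not say how GATA-1 was introduced, which promoter drives it, whether a line is 1 clone, or how long the treatment lasted. Because each group is 1 sample, no difference below has a replicate check, and the values are descriptions.

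GATA-1 is a zinc finger transcription factor that binds the letters GATA in DNA through its C-terminal finger and switches erythroid genes on. Its N-terminal finger holds the partner FOG-1 (Zfpm1), which takes part both in activating globin genes and in shutting down genes of progenitors and mast cells, Gata2 and Kit among them. V205M exchanges a valine of that finger for methionine and is known to weaken the contact with FOG-1. The same change in people causes an inherited anaemia with low platelet counts.

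Of the 12931 genes tested, 9.36% were listed, meaning that the authors' deposited table holds them with an adjusted p under 0.01 and more than a 2-fold change. GATA-1 V205M was lower than GATA-1 WT in 731 genes (5.65% of those tested) and higher in 479 (3.70%). Since these limits chose the genes, the counts and sizes that follow describe the table and support nothing by themselves. Levels are scaled reads, that is reads divided by a size factor of each library, and a log2 change is that of the V205M level plus 1 over the WT level plus 1. The reads behind the listed genes summed to 991614 in GATA-1 WT and to 488046 and 413377 in the 2 count columns from which the authors averaged the V205M level. The sources used here do not say if these columns are cultures or runs, so they are shown side by side and not used as replicates. No count was below 1 in either group, and the sources used here do not say if 1 was added to all counts or if genes without reads were dropped.

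The lower genes had a median log2 change of -1.58, and 232 of them were past 4-fold, 56 past 16-fold and 27 past 32-fold. The higher genes had a median of 1.53, with 153 past 4-fold, 51 past 16-fold and 32 past 32-fold. In reads the balance turned over: the lower genes held 85.1% of the summed scaled reads of listed genes in GATA-1 WT and 37.6% in GATA-1 V205M. Lower genes made up 60.4% of the list. When both groups were scaled to the same sum over the listed genes, every log2 change moved up by about 0.58, 375 lower and 479 higher genes were past 2-fold, and the lower share of these was 43.9%. No gene changed direction under that scaling, which was fixed in advance because the shift is smaller than the 2-fold limit of the table. Just inside the 2-fold limit lay Rbm6 (369.7 against 184.8 scaled reads, lower) and Gm7701 (207.2 against 415.1, higher), with folds of 2.001 and 2.003, and genes just outside it are not in the table.

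**Figure D1:**
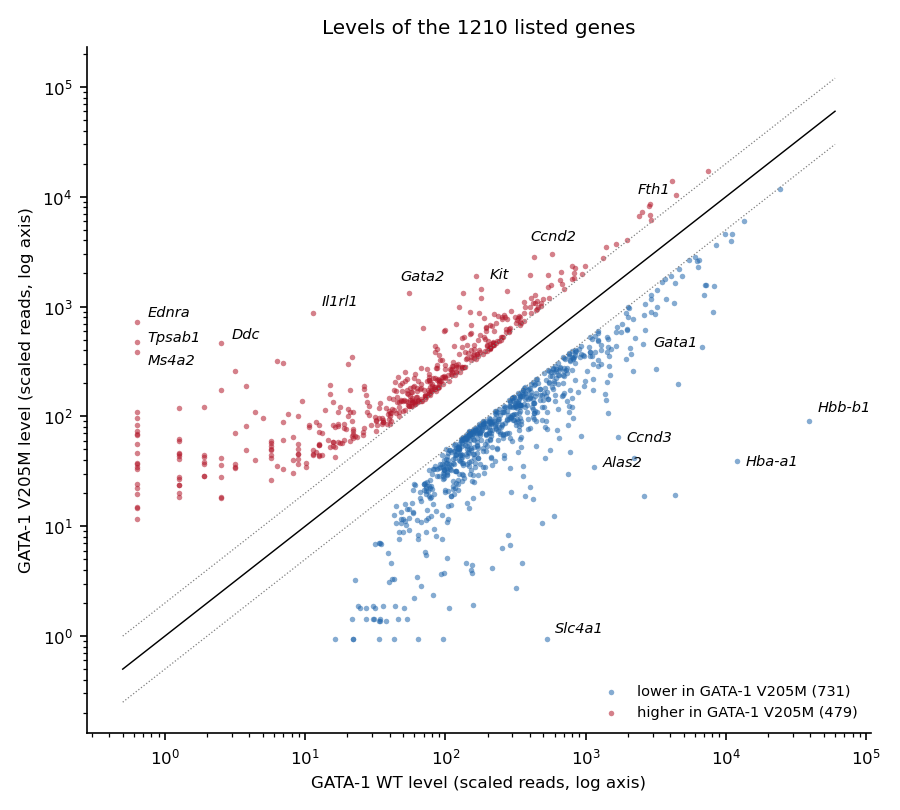
Level of each listed gene in GATA-1 WT (x axis, scaled reads, log scale) and GATA-1 V205M (y axis, scaled reads, log scale), with equal levels as a solid line and 2-fold differences as dotted lines. The 731 lower genes (blue) lie below the lines and reach down from the globins at the far right, while the 479 higher genes (red) include a column at the left edge with 1 read in GATA-1 WT.

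The gene that carries the change was itself at a lower RNA level. Gata1 stood at 2652 scaled reads in GATA-1 WT and at 606 and 621 in the V205M count columns, against 153 in the G1E control and 1421 in GATA-1 2RA. Both V205M columns lay far below GATA-1 WT, with a ratio of 4.32-fold (95% counting interval 4.07 to 4.61), and above the control. Intervals here and below are exact binomial intervals from the reads of both groups, cover counting error only and say nothing of the spread between cultures. Esr1, the estrogen receptor gene, was at 58.6 scaled reads in GATA-1 WT, 14.6 and 12 in the V205M columns, 1.83 in the control and 43.6 in GATA-1 2RA. Its ratio, 4.40-fold (95% counting interval 2.85 to 6.87), was close in size to that of Gata1. The sources used here do not say if those reads stem from the endogenous gene or from a fusion with an introduced GATA-1. The part that the level of GATA-1 played in the other differences was not tested. Zfpm1, which encodes FOG-1, was in none of the 6 tables.

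The genes described next fall into 2 sides, red cell genes that were lower and mast cell and progenitor genes that were higher, and the stretches before 6 of their start sites show that letters bound by GATA factors occur on both sides. RefSeq promoter windows (GRCm38.p6, 250 bases before to 50 after the start site) matched 859 of the 1210 genes, and 2 forms of those letters were searched on both strands, AGATAA and, as the other form, TGATAA. The upstream 250 bases of 3 lower genes, Alas2 (chrX:150547167-150547416, plus strand), Rhag (chr17:40810899-40811148, plus strand) and Klf1 (chr8:84901732-84901981, plus strand), are printed first. Those of 3 higher genes, Ms4a2 (chr19:11623720-11623969, minus strand), Il1rl1 (chr1:40429320-40429569, plus strand) and Cpa3 (chr3:20242182-20242431, minus strand), follow. Each runs 5′ to 3′ along its gene and ends at the base before the start site, and capitals mark the matches.
Alas2: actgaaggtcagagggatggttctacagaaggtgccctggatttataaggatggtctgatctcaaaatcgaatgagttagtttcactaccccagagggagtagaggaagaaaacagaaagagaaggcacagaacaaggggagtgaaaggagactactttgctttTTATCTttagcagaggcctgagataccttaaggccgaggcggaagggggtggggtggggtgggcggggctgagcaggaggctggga
Rhag: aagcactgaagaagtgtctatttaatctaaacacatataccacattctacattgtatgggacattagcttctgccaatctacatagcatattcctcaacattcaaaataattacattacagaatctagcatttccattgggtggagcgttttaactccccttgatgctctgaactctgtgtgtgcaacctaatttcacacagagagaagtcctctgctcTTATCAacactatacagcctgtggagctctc
Klf1: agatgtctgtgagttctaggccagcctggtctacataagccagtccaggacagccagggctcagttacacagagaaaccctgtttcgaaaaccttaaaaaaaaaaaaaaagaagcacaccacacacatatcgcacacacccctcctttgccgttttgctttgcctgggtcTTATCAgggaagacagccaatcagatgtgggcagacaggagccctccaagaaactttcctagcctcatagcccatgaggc
Ms4a2: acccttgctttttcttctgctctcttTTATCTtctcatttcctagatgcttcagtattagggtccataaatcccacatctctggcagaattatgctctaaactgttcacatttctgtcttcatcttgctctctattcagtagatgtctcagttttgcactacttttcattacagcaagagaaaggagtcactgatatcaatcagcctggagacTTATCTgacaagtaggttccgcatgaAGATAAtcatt
Il1rl1: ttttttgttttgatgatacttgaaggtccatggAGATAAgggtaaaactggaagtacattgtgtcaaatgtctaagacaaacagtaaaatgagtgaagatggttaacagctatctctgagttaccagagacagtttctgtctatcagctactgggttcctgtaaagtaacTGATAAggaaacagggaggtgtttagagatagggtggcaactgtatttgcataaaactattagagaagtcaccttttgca
Cpa3: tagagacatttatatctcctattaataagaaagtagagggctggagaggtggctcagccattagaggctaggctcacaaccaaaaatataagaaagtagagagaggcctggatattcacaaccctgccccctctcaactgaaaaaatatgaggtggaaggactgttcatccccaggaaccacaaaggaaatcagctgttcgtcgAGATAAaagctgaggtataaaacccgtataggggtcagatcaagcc

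The single match of Alas2 began 86 bases before the start site, that of Rhag 31, that of Klf1 80 and that of Cpa3 46. Ms4a2 had 3 matches, beginning 224, 37 and 11 bases upstream, and Il1rl1 had 2, at 217 and 80. These 6 genes were chosen because they hold a match, Klf1 and Cpa3 also after their values were seen, so they illustrate the letters and do not measure how common they are. Over full windows, 12.6% of the 522 lower and 13.4% of the 337 higher genes held either motif, beside 19% of the 27025 genes of the promoter table. Among genes lower by more than 8-fold the share was 22.6% of 62 windows, and among those higher by more than 8-fold it was 22.2% of 54. A match is a description of letters, not a bound site, and the shares of the lower and higher genes lay close together. The set of all windows was not limited to the 12931 genes tested, so whether a gap from it holds among tested genes was not tested. Further motifs were searched on both strands of the same windows. CACGTG, the E-box that Myc binds, was in 11.1% of lower, 12.8% of higher and 7.24% of all windows, and CCGGAAG, an ETS factor motif, in 16.1%, 14.2% and 9.12%. TATAAA, the TATA box, was in 6.13%, 7.72% and 14.2%. In the genes past 8-fold these differences from all windows were smaller or turned round: among the lower and the higher, CACGTG was in 8.06% and 3.7%, CCGGAAG in 11.3% and 1.85%, and TATAAA in 14.5% and 14.8%. The Klf motif CCACACCC was in 4.79%, 3.86% and 3.57%, and TGAGTCA, bound by AP-1 and within the NF-E2 motif, in 2.49%, 4.15% and 5.17%. Past 8-fold, CCACACCC was in 3.23% of lower and 7.41% of higher windows, and TGAGTCA in 1.61% and 1.85%. Slc4a1 and Tpsab1 were among the genes with no window.

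Globin genes showed the widest difference. All 5 listed of 13 globin genes were lower in GATA-1 V205M, with a median log2 change of -7.75 beside -1.16 over all listed genes, and their share of the listed genes' scaled reads was 9.31% in GATA-1 WT and 0.041% in GATA-1 V205M. Hbb-b1, an adult beta-globin chain, stood at 39108 scaled reads in GATA-1 WT and at 91.1 and 92.2 in the V205M columns, a 427-fold difference (95% counting interval 371 to 493). The V205M level was also below the 238 of the G1E control and the 2342 of GATA-1 2RA, so GATA-1 V205M was the lowest of the 4 groups for this gene. Hba-a1, an alpha-globin chain (chromosome 11, 32283511 to 32284465), had 12001 scaled reads in GATA-1 WT, 37.8 and 40.1 in the V205M columns, 1291 in the control and 32.9 in GATA-1 2RA. Its V205M level thus lay beside that of GATA-1 2RA and far under the control, and GATA-1 WT stood 308-fold higher (95% counting interval 249 to 387). Hbb-b2 (4362 against 19.3) and Hba-a2 (2619 against 19.0) were lower in the same way, but Hbb-b2 is a near-identical copy of Hbb-b1 and Hba-a2 of Hba-a1, so how reads were divided within each pair is uncertain. The embryonic chain Hbb-bh1 was low in both groups, at 51.0 and 1.79 scaled reads, the latter from 4 reads.

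Heme, the iron-holding group of haemoglobin, is made by a chain of enzymes that starts in the mitochondrion with Alas2. All 12 listed of 25 heme synthesis genes were lower, with a median log2 change of -2.29. Alas2 had 1154 scaled reads in GATA-1 WT, 41.3 and 28.1 in the V205M columns, 6.54 in the control and 2.14 in GATA-1 2RA. GATA-1 V205M therefore had a level above both the control and GATA-1 2RA while standing 33.3-fold (95% counting interval 26.1 to 41.9) under GATA-1 WT. Alad, the second enzyme, was at 510 against 42.2 scaled reads (12.1-fold, 95% counting interval 9.75 to 15.2), and below the 132 of the control. Uros, the fourth, was at 348 against 65.5. Abcb10, a transporter of the mitochondrial inner membrane, was at 3195 against 272 scaled reads, and Slc25a38, which brings in the glycine that Alas2 uses, at 816 against 97.0. The later enzymes differed less: Urod, Fech and Cpox, named here after their values were seen, had log2 changes of -1.77, -1.68 and -1.07. Among all 12, the change was thus widest at the first step of the pathway.

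Of 31 iron handling genes, 6 were listed as lower and 1 as higher. Slc25a37 (mitoferrin), which takes iron into the mitochondrion, was at 443 scaled reads in GATA-1 WT and 53.4 in GATA-1 V205M (8.30-fold, 95% counting interval 6.84 to 10.2). Steap3, the reductase that prepares iron for release from the endosome, was at 1510 against 408. The subunits of the iron store ferritin went opposite ways. Ftl1, the light chain, was at 6204 against 2624, and Fth1, the heavy chain, at 2890 in GATA-1 WT against 8597 in GATA-1 V205M, with 13492 in the control and 2382 in GATA-1 2RA. Ferritin genes have many processed pseudogenes, so their read counts are uncertain.

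All 18 listed of 37 red cell membrane and skeleton genes were lower, with a median log2 change of -2.48. Slc4a1 (band 3), the anion exchanger that anchors the membrane to the skeleton (chromosome 11, 102348824 to 102366203), had 527 scaled reads in GATA-1 WT and 1 read in each V205M column. Against 5.80 in the control and 1.43 in GATA-1 2RA, only the WT group held more than a few reads of it, and the ratio was 566-fold with a 95% counting interval of 157 to 4707. Rhag, the Rh-associated glycoprotein, had 2197 scaled reads in GATA-1 WT, 37.8 and 46.1 in the V205M columns, 1180 in the control and 84.3 in GATA-1 2RA. Here the control lay near the WT level and both mutant groups were low. Of the skeleton, Epb4.9 (dematin) was at 152 against 4.01 scaled reads, the adducin Add2 at 925 against 65.8 and the alpha-spectrin Spna1 at 295 against 20.6. The beta-spectrin Spnb1, named after its value was seen, differed least of these at 1217 against 576, and it overlaps Plekhg3 on the opposite strand.

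Other enzymes and maturation factors of the red cell followed. All 23 listed of 59 genes on that list were lower, with a median log2 change of -2.41. Pklr, the pyruvate kinase of red cells and liver, was at 350 scaled reads in GATA-1 WT, 4.30 and 5.01 in the V205M columns, 204 in the control and 0.714 in GATA-1 2RA. Slc38a5, a glutamine transporter, was at 252 against 6.30, and Btn1a1, a butyrophilin, at 281 against 8.30. Hemgn (hemogen), a nuclear protein of blood progenitors, was at 744.5 against 29.8 scaled reads (25-fold, 95% counting interval 19.3 to 32.3), and Pim1, a survival kinase downstream of cytokine receptors, at 556 against 49.2. Pklr, Hemgn and Pim1 lay under the control level in GATA-1 V205M, while Slc38a5 and Btn1a1, at 2.26 and 1.83 in the control, lay over it.

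**Figure D2:**
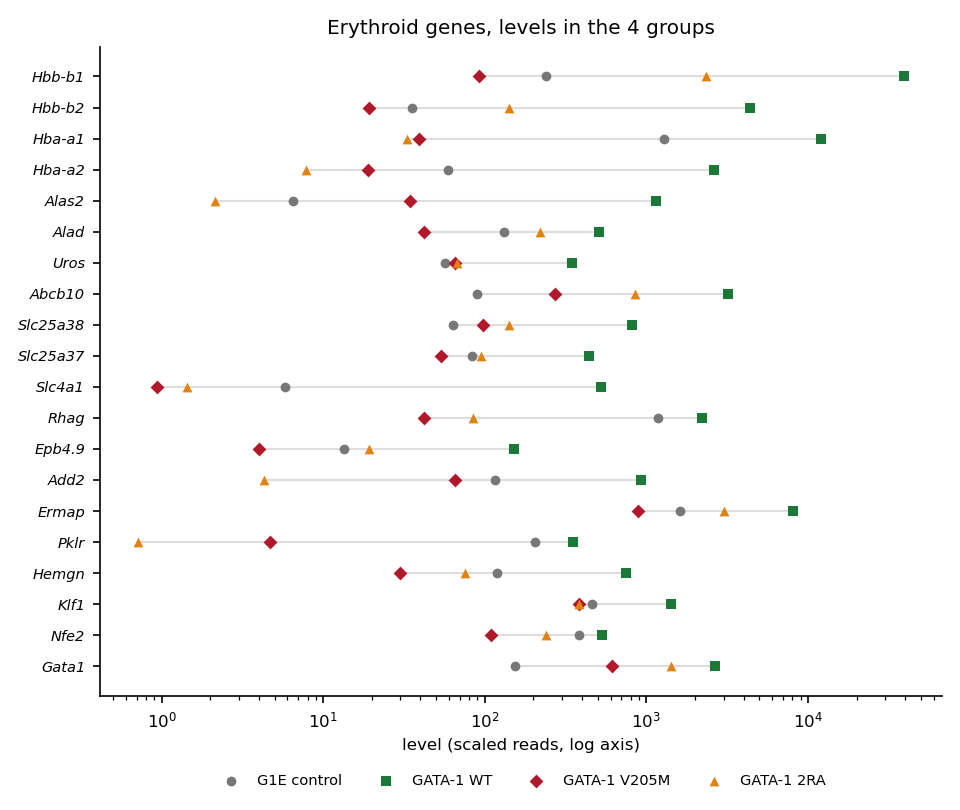
Levels of 20 erythroid genes (x axis, scaled reads, log scale) in the G1E control (grey circles), GATA-1 WT (green squares), GATA-1 V205M (red diamonds) and GATA-1 2RA (orange triangles), each point being the authors' level of 1 sample. GATA-1 WT is the highest of the 4 groups in each gene shown, and the V205M level is under the control for Hbb-b1, Hba-a1, Rhag and Pklr but over it for Alas2, Abcb10 and Gata1. The genes shown are a selection, and in some other erythroid genes another group is highest. Examples are Tal1 (627 in the control, 341 in GATA-1 WT) and Spnb1 (1349 in GATA-1 2RA, 1217 in GATA-1 WT).

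Transcription factors of the erythroid network split. Of 55 on the list, 11 were lower and 9 higher. Klf1, the factor that binds CACCC boxes of erythroid genes and drives adult beta-globin, was at 1418 scaled reads in GATA-1 WT, 385 and 380 in the V205M columns, 462 in the control and 381 in GATA-1 2RA. The latter 3 groups lay close together, and GATA-1 WT stood 3.71-fold higher (95% counting interval 3.42 to 4.02). Nfe2, which binds the globin locus control region, was at 528 against 109, and Klf3, a repressor of the Klf family, at 114 against 21.8. Lmo2 and Tal1, partners of GATA-1 in 1 complex, had log2 changes of -1.69 and -1.61 and are named here after their values were seen. On the higher side stood Gata2 (4.56), Ikzf2 (4.13), Myb (2.21), Myc (1.90) and Stat5a (1.38), of which Myc and Stat5a are named after their values were seen.

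Gata2, the GATA factor of progenitors and mast cells, had 54.8 scaled reads in GATA-1 WT and 1316 in GATA-1 V205M, beside 773 in the control and 514 in GATA-1 2RA. The V205M level was the highest of the 4 groups and 24.0-fold (95% counting interval 19.4 to 30.1) the WT level. Kit, the receptor for stem cell factor, had 179 scaled reads in GATA-1 WT, 1440 in GATA-1 V205M, 2429 in the control and 2218 in GATA-1 2RA. GATA-1 WT stood alone at a low Kit level, 8.05-fold (95% counting interval 7.14 to 9.14) under V205M. Of 60 stem and progenitor genes, 10 were higher and 1, the thioredoxin inhibitor Txnip, was lower, with a median log2 change of 2.32. Ahnak, a large scaffold protein, was at 3.15 against 261 scaled reads, Vim, the intermediate filament vimentin, at 8.82 against 99.9, and Ikzf2 (Helios), an Ikaros family factor, at 3.78 against 82.5. Cd44, the hyaluronan receptor, was at 174 in GATA-1 WT and 873 in GATA-1 V205M, above the 290 of the control and the 322 of GATA-1 2RA. Myb, the factor that keeps progenitors dividing, had 87.6 against 408 scaled reads, and its V205M level lay beside the 416 of the control and the 406 of GATA-1 2RA.

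Mast cell genes had the highest median change of the lists with 5 or more listed genes. Of 57 on the list, 13 were higher and 1 lower, with a median log2 change of 4.92. Their summed level was 608 scaled reads in GATA-1 WT and 7132 in GATA-1 V205M. Kit and Gata2, described above with the progenitor genes, are part of this list and of its sum, as is Ednra, described below. For 8 of the 14, GATA-1 WT held 3 or fewer reads, or GATA-1 V205M did, so their ratios are loose. In bulk RNA, fewer cells of a type and less RNA per cell cannot be told apart. Tpsab1, a tryptase stored in mast cell granules, had 1 read in GATA-1 WT but 474 scaled reads in GATA-1 V205M (753-fold, 95% counting interval 135 to 29792), with 55.1 in the control and 139 in GATA-1 2RA. Its close relative Tpsb2 may share its reads. Ms4a2, a subunit of the mast cell IgE receptor, had 1 read in GATA-1 WT against 383 scaled reads (608-fold, 95% counting interval 108 to 23961), with 140 in the control and 2.14 in GATA-1 2RA. Il1rl1, the receptor for IL-33, had 18 reads in GATA-1 WT, which gave 11.3 scaled reads, and 882 in GATA-1 V205M (77.8-fold, 95% counting interval 49.0 to 131), with 164 in the control. For these 3 genes GATA-1 V205M was the highest of the 4 groups, above the control.

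Hdc, which makes histamine, was at 1.89 scaled reads in GATA-1 WT (3 reads) and 121 in GATA-1 V205M (64.0-fold, 95% counting interval 21.5 to 311), again over the 29.5 of the control. Adora3, a receptor through which adenosine promotes mast cell degranulation, was at 6.93 against 309 scaled reads, with 24.0 in the control. Other genes of the same list did not reach the control level. Cpa3, the carboxypeptidase of mast cell granules, had 1 read in GATA-1 WT, then 14.6 scaled reads in GATA-1 V205M, but 2795 in the control. Alox5, the leukotriene enzyme, was at 1.89 against 38.6, with 152 in the control, and Cyp11a1, a steroid side-chain enzyme, at 1 read against 11.6 scaled reads, with 223 in the control. Ndst2, which sulphates the heparin of the granules, was at 134 against 1339, with 2124 in the control. Alox5, Cpa3, Cyp11a1 and Ndst2 fall outside the naming rule and are given because their order of groups was seen to differ. Srgn (serglycin), the core protein that carries that heparin, was the 1 lower gene, with 215 scaled reads in GATA-1 WT, 4.15 in GATA-1 V205M, 69.6 in the control and 1077 in GATA-1 2RA. GATA-1 V205M thus held high levels of receptor, tryptase and histamine genes beside the lowest Srgn level of the 4 groups.

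**Figure D3:**
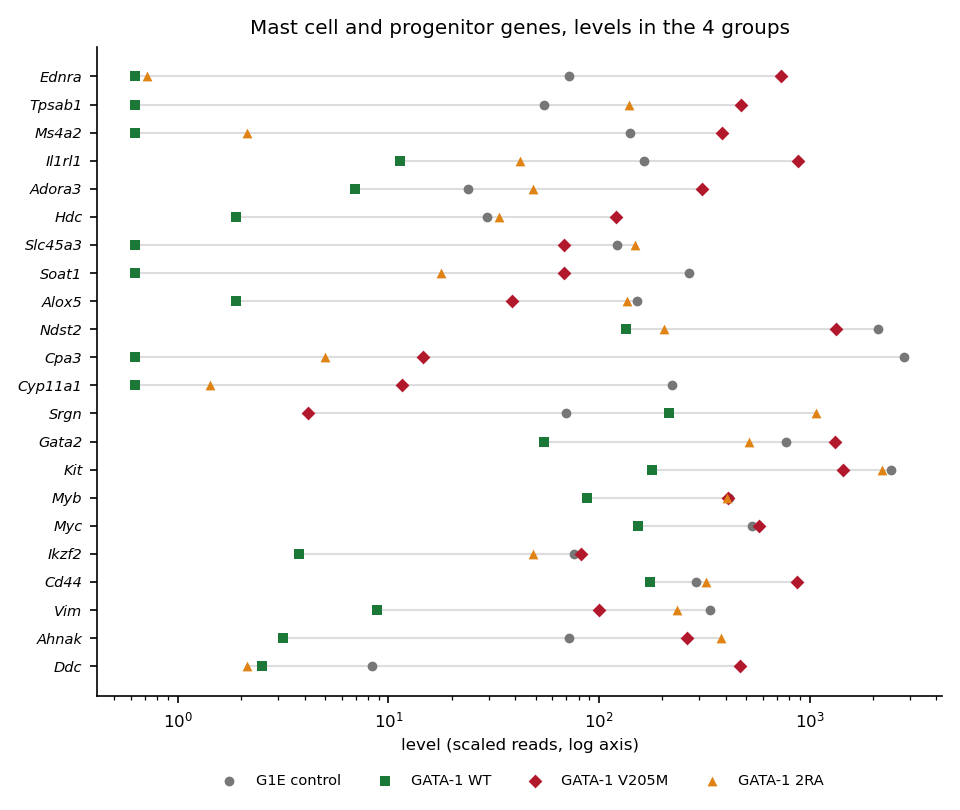
Levels of 22 mast cell, progenitor and other higher genes (x axis, scaled reads, log scale) in the G1E control (grey circles), GATA-1 WT (green squares), GATA-1 V205M (red diamonds) and GATA-1 2RA (orange triangles), each point being the authors' level of 1 sample; genes without a point for a group have no level in its tables. V205M lies above the control for Ednra, Tpsab1, Ms4a2, Il1rl1, Adora3, Hdc, Gata2, Cd44 and Ddc, and below it for Cpa3, Cyp11a1, Soat1 and Kit.

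Markers of eosinophils and basophils, lymphocytes, neutrophils and macrophages, and endothelial and stromal cells were listed at 0% to 4% of each list, and those of megakaryocytes and platelets at 11.6%, beside 9.36% of all genes tested. None of 18 eosinophil and basophil genes and none of 37 lymphocyte genes was listed, and Itgb2, an integrin chain that was lower (428 against 95.4 scaled reads), was the 1 listed of 54 neutrophil and macrophage genes. Col5a1, a collagen chain (104 against 11.6), was the 1 listed of 25 endothelial and stromal genes. An unlisted gene may have been unchanged, too low or not tested. The listed genes of the mast cell list, among them Ms4a2 and Hdc, are not on the eosinophil and basophil list. The count of the latter thus depends on how genes were assigned to lists. Of 43 megakaryocyte and platelet genes, 4 were lower and Gata2 was higher. Tubb1, the platelet tubulin, had 63.6 scaled reads in GATA-1 WT and 1 read in each V205M column (68.4-fold, 95% counting interval 18.5 to 576). Plek (pleckstrin), a platelet kinase substrate, was at 368 against 18.7 scaled reads, with 237 in the control and 1319 in GATA-1 2RA. P2ry1, an ADP receptor of platelets, was at 94.5 against 7.59, and Fermt3 (kindlin-3), which activates integrins, at 3099 against 857. In Plek and P2ry1 the V205M level was the lowest of the 4 groups.

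Several of the most altered genes belong to neither cell type list. On the lower side stood Col18a1, a basement membrane collagen (321 against 2.72 scaled reads, 118-fold, 95% counting interval 52.8 to 317), and Ndufa4l2, a mitochondrial protein induced by hypoxia (158 against 1.93). Ndufa4l2 overlaps Shmt2 on the opposite strand. Slc30a10, a manganese exporter of the cell surface, was at 489 against 10.7, and Tnfrsf13c, the BAFF receptor, at 105 against 1.79 from 4 reads. Rab4a, a GTPase of recycling endosomes, was at 291 against 6.80. Tmem184a (591 against 12.3), which overlaps Mafk on the opposite strand, Fam78a (155 against 3.72) and the predicted gene Gm3604 (96.4 against 0.931) completed the 20 widest decreases with the genes named above. Srgn, Col18a1, Tmem184a, Rab4a and Gm3604 had GATA-1 2RA levels of 1077, 777, 246.5, 209 and 90.0, well above their V205M levels.

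On the higher side the widest difference was that of Ednra, the endothelin A receptor (chromosome 8). Ednra and Slc45a3, unlike the other genes of this paragraph, are on the mast cell list and are counted there. Ednra had 1 read in GATA-1 WT, which is 0.630 scaled reads, and 730 in GATA-1 V205M. The ratio was 1158-fold (95% counting interval 207 to 45631), with 72.2 in the control and 0.714 in GATA-1 2RA. The noncoding 4933431K23Rik, which overlaps it on the opposite strand, was higher as well (log2 change 4.55). Ddc, the decarboxylase that makes dopamine and serotonin, was at 2.52 scaled reads in GATA-1 WT, 465 in GATA-1 V205M, 8.37 in the control and 2.14 in GATA-1 2RA. GATA-1 V205M was thus the only 1 of the 4 groups with a high Ddc level. The gene 1700042O10Rik (1.26 against 119) lies inside Ddc on the opposite strand, and the sources used here do not say if the counts used strand. Rbfox2, a splicing factor, was at 2.52 against 175 scaled reads, with 9.99 in the control and 3.57 in GATA-1 2RA, and so was likewise high in GATA-1 V205M alone. Npl, a sialic acid lyase (1 read against 110 scaled reads), and Plekhg3, an exchange factor of small GTPases (1 read against 95.8), were both higher in GATA-1 2RA than in V205M, at 398 and 144. Gpr65, a proton-sensing receptor, was at 1 read against 83.5 scaled reads, Tgfb3, a transforming growth factor, at 1 read against 73.0, and Rps6ka1, the kinase RSK1, at 3.78 against 188. Slc45a3 (1 read against 68.5), the cholesterol-esterifying Soat1 (1 read against 68.2), Erv3 (6.30 against 317), Cd109 (1 read against 56.1) and Cgnl1 (1 read against 46.6) completed the 20.

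**Figure D4:**
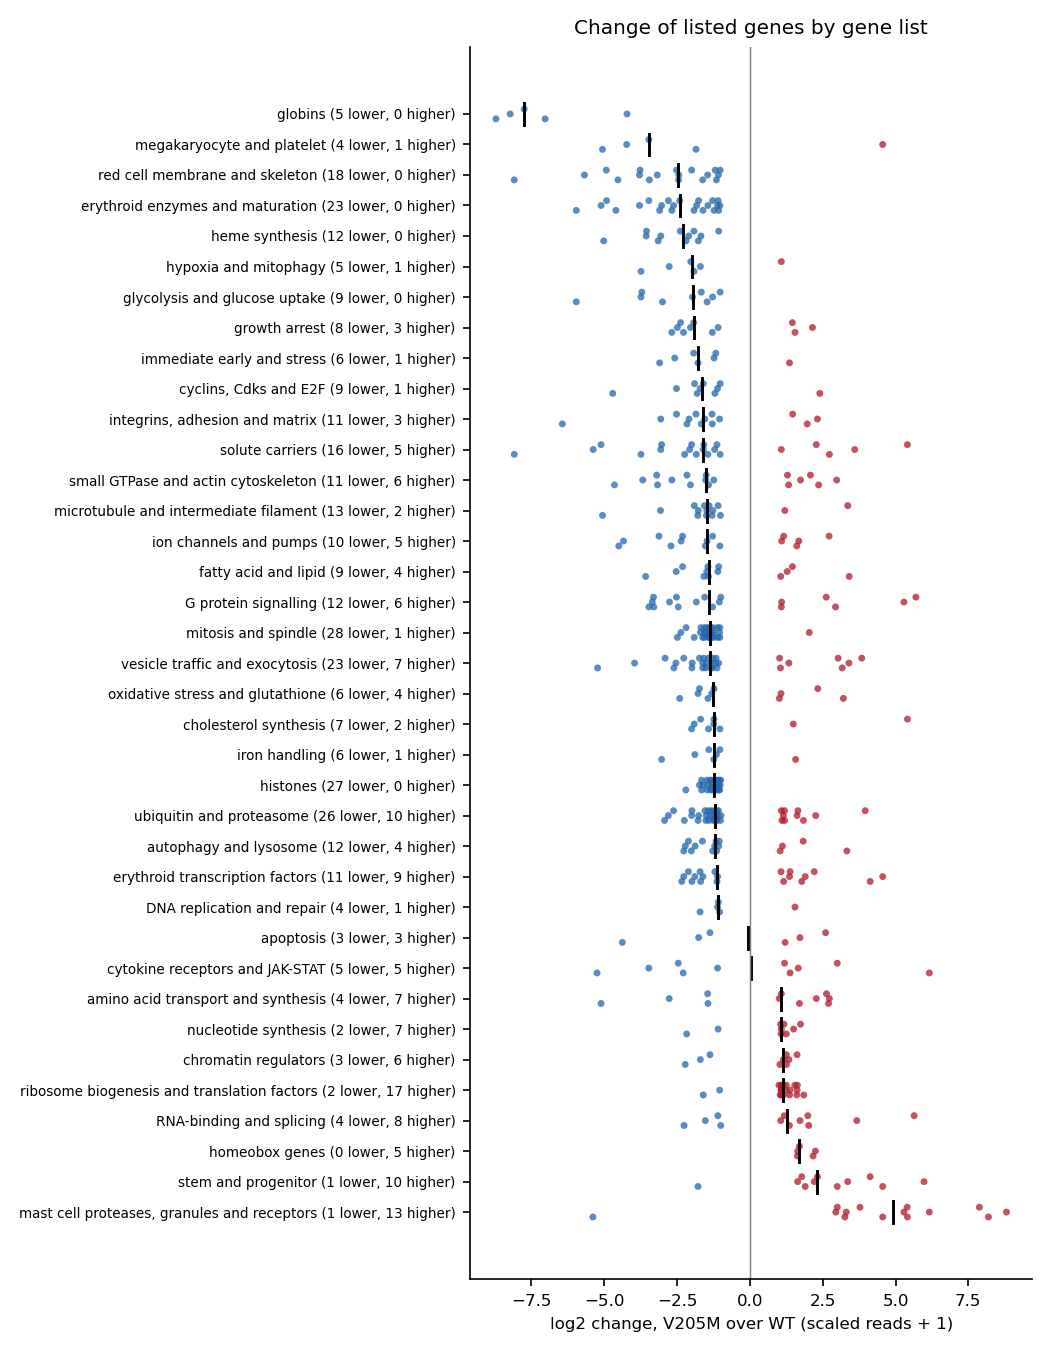
Log2 change of GATA-1 V205M over GATA-1 WT (x axis, scaled reads plus 1) for the listed members of each gene list with 5 or more of them; points are genes, blue when lower and red when higher, and black bars are medians. The gap around 0 is the 2-fold limit of the table; globins lie farthest to the left (median -7.75) and mast cell genes farthest to the right (median 4.92).

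Of the cell cycle genes that were listed, more were lower than higher, but most genes of these lists were not listed. Of 32 cyclin, Cdk and E2F genes, 9 were lower and 1 higher, and the D-type cyclins, which start the cycle in answer to growth factors, stood in opposite directions. Ccnd3, the D cyclin of erythroblasts, had 1705 scaled reads in GATA-1 WT, 64.5 and 64.1 in the V205M columns, 347 in the control and 440 in GATA-1 2RA (26.5-fold, 95% counting interval 22.4 to 31.7). Its pseudogene Ccnd3-ps also differed (421 against 17.5), and how reads were divided between them is uncertain. Ccnd2 had 573 scaled reads in GATA-1 WT and 3028 in GATA-1 V205M (5.29-fold, 95% counting interval 4.93 to 5.67), beside 2143 in the control and 2910 in GATA-1 2RA. GATA-1 WT thus had the highest Ccnd3 and the lowest Ccnd2 level of the 4 groups. The phosphatase Cdc25b was at 261 against 44.9 scaled reads and the S phase cyclin Ccne1 at 257 against 68.1. Of 76 mitosis and spindle genes, 28 were lower and 1 higher, with a median log2 change of -1.38, close to the -1.16 of all listed genes. Prc1, which bundles the midzone, was at 2553 against 454, Nusap1, a spindle protein, at 1131 against 219, and Mki67 at 3245 against 1001, while Cep55, an abscission protein, was the higher 1 at 21.4 against 91.1. With equal sums over the listed genes, the median of this list was -0.80.

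Of 37 histone genes held in any of the 6 tables of the series, 27 were listed here and all of these were lower, with a median log2 change of -1.22, and they summed to 114951 scaled reads in GATA-1 WT and 47517 in GATA-1 V205M. Hist1h1c, a linker histone, was at 7189 against 1568, Hist1h3b at 1985 against 627 and Hist1h3c at 3727 against 1180. Many histone genes are near copies of each other and most of their RNAs end without a poly(A) tail, and the part of these features in the result was not tested. The growth arrest list held 8 lower and 3 higher of 37 genes. Btg2, an antiproliferative gene, was at 1120 against 174 scaled reads, with 11.3 in the control. Cdkn1b (p27), an inhibitor of cyclin-dependent kinases, was at 450 against 109, and Gadd45a, a stress-induced arrest gene, at 150 against 30.0. Pdcd4, an inhibitor of translation, was higher at 151 against 673.5.

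Of 46 glycolysis and glucose uptake genes, 9 were listed and all of these were lower, with a median log2 change of -1.97. That is 19.6% of the list, beside the 5.65% of all genes tested that were lower. Some are shared with other lists, Pklr with that of red cell enzymes and Slc2a3 with that of hypoxia. Slc2a3, the glucose transporter GLUT3, was at 1440 scaled reads in GATA-1 WT and 107 in GATA-1 V205M (13.4-fold, 95% counting interval 11.7 to 15.4), with 9.02 in the control and 1568 in GATA-1 2RA. V205M was thus between the control and the other GATA-1 groups. Pfkp, a phosphofructokinase, was at 843 against 214. Of 30 hypoxia and mitophagy genes, 5 were lower and 1 higher. Bnip3 was at 760 against 111 and Bnip3l (Nix), which clears mitochondria from the maturing red cell, at 1128 against 298, while the higher 1 was Hif1a at 132 against 282. Autophagy and lysosome genes were 12 lower and 4 higher of 70. Atg9a, which carries membrane to the autophagosome, was at 440 against 90.7, and the protease Ctsb at 2238 against 517, while the protease Lgmn (legumain) was at 15.1 against 161.5. None of the 15 mitochondrially encoded genes was listed.

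Among the listed genes of ribosome biogenesis, nucleotide synthesis and amino acid supply, more were higher than lower. Of 46 ribosome biogenesis and translation genes held in any of the 6 tables, 19 were listed here, beside 1210 of all 2982 genes so held. These shares lay close together, so the count of 19 is no result about the list. Of the 19, 17 were higher and 2 lower, with a median log2 change of 1.15. Polr1b, a subunit of RNA polymerase I, was at 39.7 scaled reads in GATA-1 WT and 146 in GATA-1 V205M, with 159 in the control and 114 in GATA-1 2RA. Eef1g, a subunit of the elongation factor eEF1, was at 670 against 2083, Nop16, a nucleolar protein, at 171 against 499, and Utp20, which acts in 18S rRNA processing, at 59.2 against 184. Nucleotide synthesis genes were 7 higher and 2 lower of 38, with Pfas (194 against 648) and Gart (201.5 against 482) of the purine pathway and Dhodh (57.9 against 166) of the pyrimidine pathway among the higher. Those lower were Ampd3 (780 against 173) and Nt5c3 (4660 against 2193), both of which break down nucleotides. Amino acid genes were 7 higher and 4 lower of 51. Slc7a8, a transporter of neutral amino acids, was at 179.5 against 1199 and Mthfd1, a folate enzyme, at 429 against 2801, while Bcat2, which degrades branched-chain amino acids, was at 1413 against 206. In the nucleotide list, the higher genes act in synthesis or salvage and the lower ones in breakdown.

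Antioxidant genes were 6 lower and 4 higher of 43. Prdx2, the peroxiredoxin of red cells, was at 8249 against 1555 scaled reads (5.30-fold, 95% counting interval 5.11 to 5.51), while its relative Prdx1 was at 273 against 1382. Catalase (Cat) was at 1424 against 524, and Gss, the glutathione synthetase, at 68.7 against 642. Prdx2 overlaps Rnaseh2a and Gss overlaps Acss2, each on the opposite strand. The pair of peroxiredoxins therefore stood in opposite directions. Cholesterol synthesis genes were 7 lower and 2 higher of 36, among them Fdft1, squalene synthase (184.5 against 48.3), and on the higher side Soat1. Fdft1 and Ctsb overlap on opposite strands.

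Of 79 cytokine receptor and JAK-STAT genes, 5 were lower and 5 higher. The share listed was 12.7%, not far from the 9.36% of all genes tested, so this count is no result about the list. Besides Tnfrsf13c and Pim1, the lower were Tnfrsf14 (123.4 against 21.6), Il9r, a receptor of IL-9 (122 against 24.1), and Epor, the erythropoietin receptor (186 against 85.4). The higher were Il1rl1, Kit, Stat3 (76.2 against 244), Stat5a (40.9 against 108) and Socs2 (75.6 against 173.5). Epor, Stat3, Stat5a and Socs2 are named after their values were seen, to complete the list. Of 9 homeobox genes held in any of the 6 tables, 5 were listed here, beside 1210 of all 2982 genes so held. All 5 were higher: Hoxb13 (87.6 against 274), Meis1 (17.6 against 57.2), Hoxc5 (52.9 against 175), Hoxc4 (8.19 against 40.5) and Pou4f1 (27.7 against 135). Hoxc5 overlaps Hoxc10, which the tables also hold, on the same strand, so its reads are uncertain. Pou4f1 lay at 142 in the control and 128 in GATA-1 2RA, so that GATA-1 WT was the low group, while Hoxb13 was highest in GATA-1 V205M, with 106 in the control and 90.0 in GATA-1 2RA. Apoptosis genes were 3 lower and 3 higher of 48, with Bcl2l1 (Bcl-xL), the survival factor of late erythroblasts, at 411 against 121. The share listed, 12.5%, was likewise not far from that of all genes tested.

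Of the listed genes of cell structure, too, more were lower than higher, beside 60.4% lower among all listed genes. The microtubule and intermediate filament list held 13 lower and 2 higher genes, and besides Tubb1 the widest decrease was that of Lmna, the nuclear lamin A/C, at 2160 scaled reads in GATA-1 WT against 257 in GATA-1 V205M (8.40-fold, 95% counting interval 7.68 to 9.20), with 190 in the control and 1132 in GATA-1 2RA. Small GTPase and actin genes were 11 lower and 6 higher, a split near that of all listed genes. Among them the GTPase activator Dock2 (30.2 against 1.43 from 3 reads) was lower, and the septin Sept9 (6.93 against 61.6) higher. Among integrin, adhesion and matrix genes, 11 were lower and 3 higher. Itgb7, an integrin chain of mast cells and lymphocytes, was on the lower side (33.4 against 7.09), and so was Cldn13, a claudin found in erythroblasts (2109 against 367, with 21.7 in the control). Ion channel and pump genes were 10 lower and 5 higher, also a split near that of all listed genes. Among them were Kcnn4, the Gardos channel of red cells, named after its value was seen (132 against 25.8), and Aqp3, an aquaporin (93.2 against 3.65). Cldn13 is counted in the red cell membrane list too.

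The smaller signalling and regulatory lists held both lower and higher genes. For the MAPK list (8% listed), the chromatin regulators (9.78%) and DNA replication and repair (8.47%, with 6.78% lower), the share listed was near the 9.36% of all genes tested, so these counts are no result about the lists. Of 46 immediate early and stress genes, 6 were lower and 1 higher, led by Ppp1r15a (GADD34), which restores translation after stress, at 1377 against 159 scaled reads, with 56.0 in the control. Of 50 MAPK and Ras feedback genes, the phosphatase Dusp1 was lower (188 against 30.7), while Dusp3 (1.26 from 2 reads against 23.7), Dusp7 (5.67 against 26.2) and the ETS factor Etv5 (13.9 against 115) were higher. Of 34 RNA-binding and splicing genes held in any of the 6 tables, 12 were listed, a share not far from the 1210 of all 2982. They were 4 lower and 8 higher, with Cpeb4, a translational regulator of late erythroblasts, lower (210 against 43.0) and Igf2bp3, a fetal RNA-binding protein, higher (12.6 against 54.3). Chromatin regulators were 3 lower and 6 higher of 92, with the H4K20 methyltransferase Suv420h2 lower (982.5 against 210.5) and the architectural protein Hmga1 higher (37.8 against 118.5). DNA replication and repair genes were 4 lower and 1 higher of 59, with the origin-licensing factor Cdc6 lower (2936 against 899) and the helicase Hells higher (409 against 1202). Fatty acid and lipid genes were 9 lower and 4 higher of 65, with the desaturase Scd2 (1939 against 335) and the lipase Lpl (210 against 41.7) lower. Only 4 of 24 ribosomal protein genes held in any of the 6 tables were listed, a smaller share than the 1210 of all 2982. These 4 (Rpl5, Rpl12, Rpl31 and Rpl36al) were higher by 2.04-fold to 2.69-fold, and such genes have many pseudogenes.

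The V205M level of every gene is a mean of both count columns. In all 1210 genes both columns lay on the same side of GATA-1 WT, and in 1121 (92.6%) both were past 2-fold. Since the authors' limits chose the genes by the mean of these columns, this agreement was largely fixed in advance. The intervals and calls that follow describe the same chosen genes and support nothing by themselves. The log2 ratio of column 2 to column 1 had an SD of 0.185 over the 909 genes with 100 or more V205M reads. In 889 genes (73.5%) the whole 95% counting interval lay past 2-fold. With an assumed biological coefficient of variation (BCV) between cultures of 0.2, edgeR on the recovered reads called 400 lower and 228 higher genes at an adjusted p below 0.01 and more than 2-fold, and with 0.4 it called 51 and 40. These calls compare the libraries, not the conditions. Ampd3, Atg9a, Dusp1, Fam78a, Nusap1, Pfkp and Ppp1r15a overlap, on the opposite strand, Rnf141, Ankzf1, Ergic1, Nup214, Oip5, Pitrm1 and Tulp2, which the tables also hold, so their reads carry the same doubt as those of Ddc. Among those that passed at 0.4 were the 20 widest decreases and the 20 widest increases described above, together with Ccnd3, Hemgn, Gata2 and Ikzf2.

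**Figure D5:**
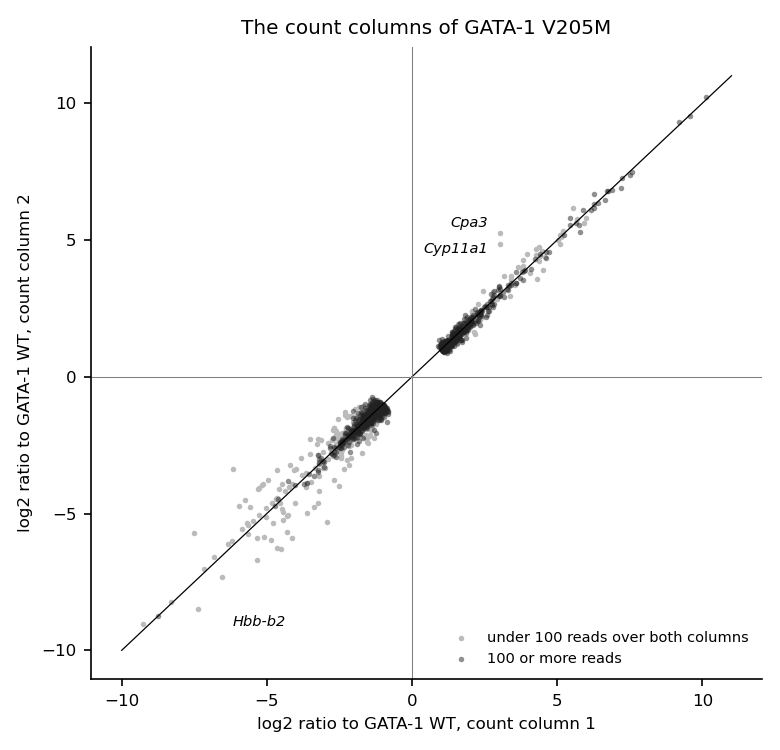
Log2 ratio to GATA-1 WT of each listed gene in count column 1 (x axis) and count column 2 (y axis) of GATA-1 V205M, in grey for genes with under 100 V205M reads and black for the others; the diagonal marks equal values. No gene lies in the upper left or lower right part, which the choice of genes by the column mean favoured. Cpa3 and Cyp11a1 stand off the diagonal.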

How the data were processed

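The deposited signal, judged from the column headers and values, is the authors' mean of size-factor-scaled reads per group, and the authors' deposited log2 and ratio columns give the fold between both means. The genes kept changed more than 2-fold with an adjusted p under 0.01. The number tested, 12931, was inferred from the authors' p-values, adjusted p-values and ranks among the listed genes. It is too low if unlisted genes ranked ahead of all listed ones, and the shares of genes tested rest on it. The submitters' processing notes name deepTools, Cuffdiff, Cufflinks, TopHat and the build mm10 without roles or versions. Per the labels' protocols, total RNA was DNase-treated and made into libraries with a TruSeq RNA kit.

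Levels are whole multiples of the worth of 1 read, or means of 2 such multiples, so reads were recovered (100.0% of values within 1e-06 reads). GATA-1 WT came from 1 count column (size factor 1.588), and GATA-1 V205M from 2 (1.163 and 0.9983). Log2 changes add 1 scaled read, and folds are ratios of the authors' levels, with 95% exact conditional binomial intervals from the recovered reads. The 20 widest changes in each direction were taken among genes whose larger level was at least 10 scaled reads. Those genes, Gata1, Gata2, Kit, Esr1, Zfpm1, and from each of 51 gene lists the 6 widest changes, or all where 8 or fewer were listed, could be named, and other names are marked. Some genes that the rule names are not reported here. The members and lists were chosen with earlier results of these data known. Lists overlap, so a gene can be counted in several of them. Of the 1210 symbols, 1190 matched GENCODE, from which coordinates (GRCm38) and overlaps were taken.

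As alternatives, edgeR 4.0.16 (R 4.3.3) was run on the recovered reads with assumed BCVs of 0.2 and 0.4, adjusted by Benjamini-Hochberg over 12931 genes. After seeing the data, its quasi-likelihood test with the V205M count columns entered separately was added. Read recovery and the edgeR step were tested on simulated data. Tables were handled with Python 3.11.15, numpy 2.4.6, pandas 2.3.3 and scipy 1.17.1.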

Additional observations from a re-analysis of the deposited data

How the results depend on the processing

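The main counts are 731 lower and 479 higher genes. Past 4-fold there were 232 and 153. With assumed BCVs, edgeR called 400 and 228 genes at 0.2, and 51 and 40 at 0.4. Scaled to equal sums over the listed genes, 375 lower genes were past 2-fold and the higher count was 479. The quasi-likelihood test, which takes its spread from the V205M count columns (BCV 0.0251), called 729 and 479, but this may be spread between runs of 1 sample. With a pseudocount of 5, 711 and 459 were past 2-fold, with count column 1 alone 698 and 467, and with column 2 alone 710 and 456. None of the 231 named genes changed direction under any of these scalings, columns or pseudocounts. For scaling and pseudocounts this was fixed in advance, because the shift by equal sums is smaller than the 2-fold limit and a pseudocount cannot reverse a ratio. The columns are those whose mean chose the genes. Restricted to genes past 4-fold, 4 of the 40 list medians could not be computed and 6 of the other 36 changed sign, through the smaller number of genes kept: erythroid transcription factors (0.05), cholesterol synthesis (1.70), nucleotide synthesis (-2.17), antioxidant genes (2.33), chromatin regulators (-2.22) and cytokine receptors (-2.38). With equal sums, the apoptosis median changed sign (0.50). No paired analysis was possible because each group has 1 sample, and for the same reason no replicate could be left out. Depth limits the 18 lower and 41 higher genes with 3 or fewer reads in 1 group, whose folds span wide counting intervals.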

Other observations

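Beyond the groups described in the report, listed genes of membrane traffic and protein turnover were more often lower than higher, as were 60.4% of all listed genes. Of 64 vesicle traffic and exocytosis genes held in any of the 6 tables, 23 were lower and 7 higher here (median log2 change -1.38), led by Rab4a (-5.23) and the Rab3 partner Rab3il1 (-3.96), with Rab11fip5 (3.17) and Tbc1d2b (3.84) on the other side. Of 94 ubiquitin and proteasome genes, 26 were lower and 10 higher (median log2 change -1.19), with the E2 enzyme Ube2l6 (1484 against 240 scaled reads) and the erythroid Trim10 (93.8 against 12.6) lower and the interferon-induced deubiquitinase-like Usp18 (1.89 against 44.1) higher. Among 52 solute carriers, 16 were lower and 5 higher, the latter including the zinc transporter Slc30a2 (2.52 against 41.7), which lay at 229 in the control. Of 35 G protein genes, 12 were lower and 6 higher, a split near that of all listed genes, among them the arrestin Arrb1 (1398 against 141) and the subunit Gnb4 (41.6 against 3.29), which stood at 224 in GATA-1 2RA.

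Pseudogenes were 45 of the 479 higher genes (9.39%) and 35 of the 731 lower genes (4.79%). All 3 listed small RNA host or small RNA genes were higher, Snhg1 (26.5 against 78.0 scaled reads), Snhg4 (22 against 69.4) and Scarna13 (17 against 58.6).

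The V205M count columns differed most, among genes with 20 or more V205M reads, in Cpa3, with 6 reads in column 1 and 24 in column 2, and in Cyp11a1, with 6 and 18. Both are mast cell list genes with 1 read in GATA-1 WT and high levels in the G1E control (2795 and 223 scaled reads). Hbb-b2 followed in the other direction, with 31 and 12 reads. These genes were chosen after their values were seen.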
